A study of Mus musculus with 16 samples.

Results

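Liver endothelium secretes growth factors that act on the cells around it, and 8 genes of this kind were followed here through endothelial cells sorted from 3 mouse organs. They were chosen by name from the BMP, Wnt, R-spondin, HGF and Kit families, with earlier results of these data known. The ligand genes were Bmp2, Bmp6, Wnt2, Wnt9b, Rspo3, Hgf and Kitl, and the receptor gene was Kit. All 8 were present among the 52636 genes of the deposited count table and among the 19646 genes that passed the filter on low counts. The study compared 6 groups, with 16 RNA-seq libraries in all. Libraries labelled Erg and Fli1 double knockout numbered 3 from liver, 3 from lung and 2 from heart, and libraries labelled Wild Type numbered 3 from liver, 3 from lung and 2 from heart. Erg and Fli1 encode ETS family transcription factors of endothelium, and the deletion was induced with tamoxifen. The treatment is recorded for the control libraries as well, and all cells were collected at day 10 after induction. Live cells negative for CD45 and positive for CD31 and for VE-cadherin, the last labelled by antibody injected into the animal, were sorted and sequenced as bulk polyadenylated RNA. The sources used here do not give the Cre driver, the alleles of the controls or the age and sex of the mice. The labels do not say whether libraries of a group came from separate animals, so p-values measure the spread between these libraries, which may be technical.

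As background, bone morphogenetic proteins made by liver endothelium act on hepatocytes, where Bmp2 and Bmp6 raise hepcidin, the hormone that limits iron uptake. Wnt2, Wnt9b and Rspo3 come mainly from endothelium near the central vein, and Wnt ligands with R-spondins switch on beta-catenin target genes in the hepatocytes around that vein. Hgf encodes hepatocyte growth factor, a mitogen for hepatocytes that signals through the receptor Met and is made in liver by stellate cells and endothelium. Kit is a receptor tyrosine kinase found on blood progenitors, mast cells and some endothelia, and Kitl encodes its ligand, stem cell factor, a niche factor for blood stem cells.

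ETS factors bind DNA around a GGAA core, so the 250 bases before each RefSeq start (GRCm38.p6) were searched on both strands for CCGGAA, for CAGGAA and for the core GGAA alone, which both longer motifs contain. RefSeq starts were matched for 6 of the 8 genes, with 8 starts, and Bmp2 and Rspo3 were not matched. Hgf and Kitl held a longer motif, and 35.1% of the 32851 promoters in the table hold CCGGAA or CAGGAA. For Hgf it lay in the window chr5:16553245-16553494, and the window of its other start, chr5:16553651-16553900, held neither longer motif. The windows of Bmp6 and Wnt9b held no GGAA on either strand, against 93.4% of all promoters that hold it. A match describes letters and not a bound site, and a window without one says only that these letters are not in it. The sequences upstream of the annotated exons are shown for Hgf, which rose in knockout-labelled liver, and for Wnt9b, Wnt2 and Kit, which fell there. Capitals mark TTCCTG, the reverse complement of CAGGAA, whose last base lies 4 bases before the Hgf start that the printed window precedes. For Kitl the motif was CCGGAA, and it lay 72 bases before the start.
Hgf, chr5:16553245-16553494, plus strand: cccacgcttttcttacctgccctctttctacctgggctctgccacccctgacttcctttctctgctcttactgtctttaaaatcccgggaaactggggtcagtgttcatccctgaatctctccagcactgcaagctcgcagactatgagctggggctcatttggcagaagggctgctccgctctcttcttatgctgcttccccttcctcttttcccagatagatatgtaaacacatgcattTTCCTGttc
Wnt9b, chr11:103749822-103750071, minus strand: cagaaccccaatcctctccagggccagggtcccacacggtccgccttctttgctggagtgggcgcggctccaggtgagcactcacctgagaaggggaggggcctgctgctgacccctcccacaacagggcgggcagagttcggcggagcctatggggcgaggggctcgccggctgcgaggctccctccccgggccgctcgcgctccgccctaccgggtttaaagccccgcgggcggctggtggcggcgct
Wnt2, chr6:18030586-18030695, minus strand: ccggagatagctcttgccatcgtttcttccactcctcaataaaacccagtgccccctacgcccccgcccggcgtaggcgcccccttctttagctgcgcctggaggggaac
Kit, chr5:75574737-75574915, plus strand: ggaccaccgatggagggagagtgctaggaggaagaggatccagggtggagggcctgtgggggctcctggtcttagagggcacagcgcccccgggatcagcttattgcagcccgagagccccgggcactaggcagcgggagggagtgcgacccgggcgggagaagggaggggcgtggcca

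Library totals ran from 30226340 to 41449054 counts. Levels are given as CPM, counts scaled to a common library size after TMM correction, and libraries of 1 group are listed in the order of their replicate numbers. Erg was at 165, 136 and 131 CPM in knockout-labelled liver, against 361, 337 and 371 CPM in control liver (log2 change -1.31, SE 0.132, edgeR adjusted p = 1.54e-05). Its log2 change was -0.52 in lung (edgeR adjusted p = 0.0231) and -0.47 in heart (edgeR adjusted p = 0.0538). Fli1 was at 144, 125 and 187 CPM in knockout-labelled liver and at 123, 113 and 114 CPM in control liver (log2 change 0.38, edgeR adjusted p = 0.1), and its whole-gene count was higher in knockout-labelled lung (log2 change 0.69, edgeR adjusted p = 0.0131). Fli1 counts therefore did not follow the label. Whole-gene counts include reads outside a deleted part, so they do not test the deletion, and the groups are called knockout-labelled throughout. The 10 markers of liver sinusoidal endothelium summed to between 12397 and 18082 CPM in knockout-labelled liver and between 28591 and 29668 CPM in control liver. In bulk libraries fewer cells of a type and less RNA per cell cannot be told apart.

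Among the control libraries, liver held the highest mean level of 5 of the 8 genes, Bmp2, Wnt2, Wnt9b, Rspo3 and Hgf. The others went against the name angiocrine growth factors of liver: Bmp6 was highest in lung, Kitl was highest in heart, and Kit was at like levels in lung and liver. In control lung against control liver, 7 of the 8 genes passed an adjusted p of 0.05, where 47.0% of all genes did. Heart against liver also gave 7 of 8, where 47.6% of all genes did, and heart against lung gave 6 of 8, where 29.5% did. Bmp2 was 336-fold lower in control lung than in control liver and 238-fold lower in control heart than in control liver (edgeR adjusted p = 1.15e-10 and 1.93e-09). Wnt2 was 339-fold lower in control lung and 276-fold lower in control heart than in control liver (edgeR adjusted p = 1.63e-08 and 2.11e-07). These 2 genes were the closest pair among the 8 in their pattern over the 16 libraries, with a root mean square difference of 0.961 on the log2 scale after centring.

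Rspo3 was 46.5-fold lower in control lung than in control liver (edgeR adjusted p = 2.31e-07). In control heart it rested on counts of 1 and 22, and the log2 difference of heart from liver was -8.20, with -7.29 without heart control 1 and -11.54 without heart control 2. Its log2 difference of control heart from control lung was -2.66 (edgeR adjusted p = 0.00298), with -1.76 and -5.99 without those libraries. Wnt9b stood 108-fold lower in control lung and 10.4-fold lower in control heart than in control liver (edgeR adjusted p = 8.37e-06 and 0.00247). Hgf was 3.32-fold lower in control lung than in control liver (edgeR adjusted p = 0.00116) and 141-fold lower in control heart than in control liver (edgeR adjusted p = 5.02e-07). In control heart against control lung its log2 difference was -5.41 (edgeR adjusted p = 6.47e-06), and it was -6.01 without heart control 1.

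Bmp6 ran another way. It was 2.47-fold higher in control lung than in control liver (edgeR adjusted p = 0.000142), and its log2 difference of control heart from control liver was -0.41 (edgeR adjusted p = 0.162), or -0.79 without heart control 2 (edgeR adjusted p = 0.0377). Kitl was 3.10-fold higher in control lung and 5.13-fold higher in control heart than in control liver (edgeR adjusted p = 2.33e-05 and 2.44e-06). Kit was 13.9-fold lower in control heart than in control liver (edgeR adjusted p = 1.21e-05), and its log2 difference of control lung from control liver was 0.13 (edgeR adjusted p = 0.775). Which of the 2 library kits named in the protocol was used for which library is not stated, so kit and tissue cannot be told apart in these contrasts.

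**Figure D1:**
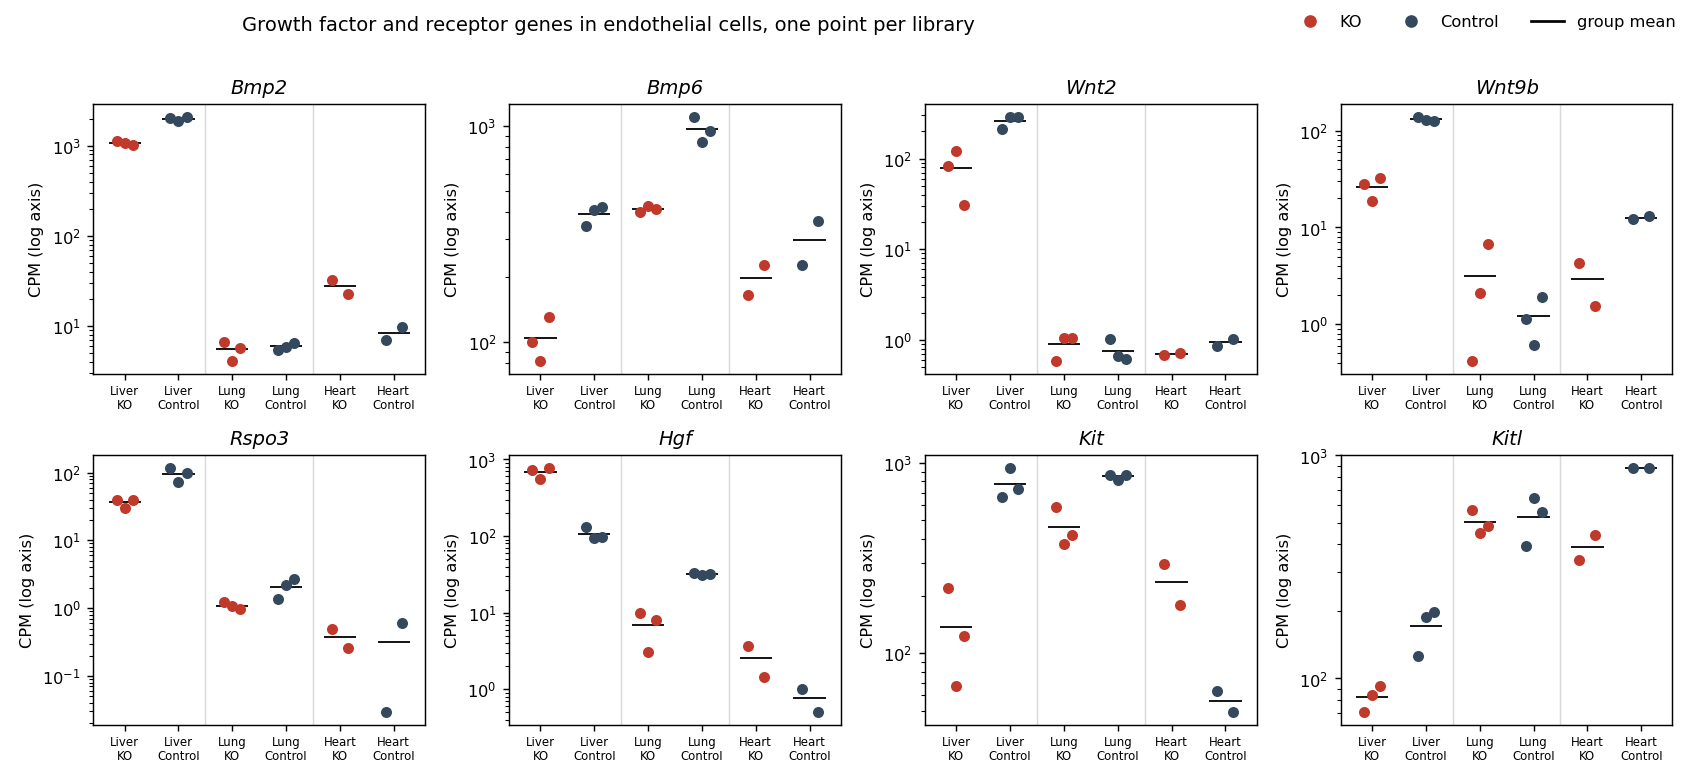
Level of each of the 8 genes in every library, in CPM on a log axis, with 1 point per library and a line at the group mean. Knockout-labelled libraries (KO) stand left of control libraries in each tissue, and in liver the groups are apart for all 8 genes, with Hgf the one that is higher in KO.

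Knockout-labelled liver endothelium had less RNA of 7 of these 8 genes and more of Hgf. In liver, 1 gene rose and 7 fell at an adjusted p of 0.05, where 9.54% of all genes rose and 9.87% fell. The 8 genes and the lists below were chosen with earlier results known, so their counts are descriptions and not independent support. For all 8 the libraries of both groups lay apart, as for 37.0% of all genes tested. In lung, none rose and 2 fell (Bmp6 and Hgf), where 4.35% of all genes rose and 4.11% fell. Marker sums of other cells also differed between the lung groups. Lung epithelium markers summed to between 317 and 540 CPM in knockout-labelled lung and between 2017 and 3233 CPM in control lung (6 of 9 fell and none rose). Leukocyte markers summed to between 76.3 and 218 CPM in knockout-labelled lung and between 477 and 559 CPM in control lung. Of 13 tested, 1 fell and none rose, and their median log2 change was -0.003, so the lower sum was not a fall across the list. The 12 markers of hepatic stellate cells, which are liver cells, do not name a cell type of lung. They summed to between 1003 and 1854 CPM in knockout-labelled and between 278 and 420 CPM in control lung (2 rose and none fell). The part of other cells in the lung values was not tested. In heart, 3 rose (Bmp2, Hgf and Kit) and 1 fell (Kitl), where 10.2% of all genes rose and 9.09% fell. The median log2 change of the 8 genes was -1.58 in liver, -0.50 in lung and -0.11 in heart, and that of all genes tested was 0.02, -0.02 and 0.01 in the same tissues. The shares of all genes that rose or fell in each tissue are also the background for every list count below.

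**Figure D2:**
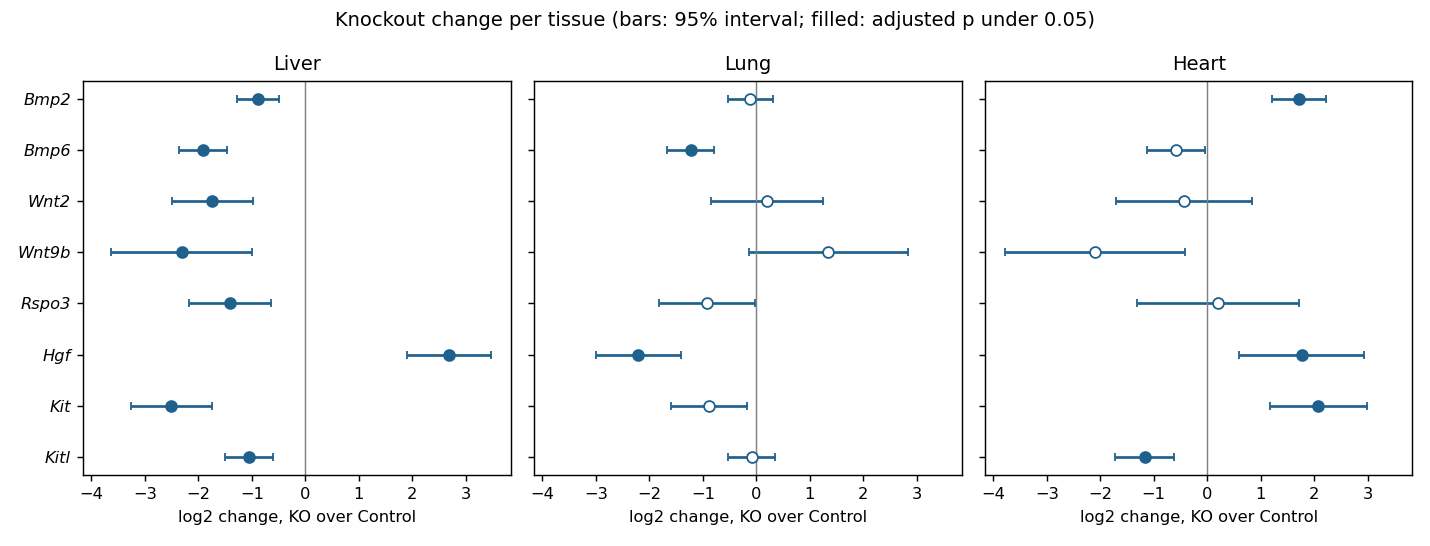
Log2 change of knockout-labelled against control libraries for each gene in liver, lung and heart, with its 95% interval. Filled points passed an adjusted p of 0.05, and Hgf lies above 0 in liver and heart and below 0 in lung.

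Of the BMP ligands, Bmp2 (ENSMUSG00000027358, chr2:133552159-133562885, plus strand, GRCm38) encodes an endothelial ligand needed for normal hepcidin levels. It was at 1129.7, 1084 and 1022 CPM in knockout-labelled liver, against 2011, 1887 and 2101 CPM in control liver. Every knockout-labelled library lay below every control library. The fall was 1.85-fold (log2 change -0.89, SE 0.184, edgeR adjusted p = 0.00372). In heart the direction was opposite: Bmp2 was at 32.6 and 22.6 CPM in knockout-labelled libraries and at 7.05 and 9.75 CPM in controls. The groups did not overlap, as for 59.0% of all genes in this 2-against-2 comparison, and the rise was 3.28-fold (log2 change 1.71, SE 0.236, edgeR adjusted p = 0.000339). In lung, Bmp2 was at 6.67, 4.05 and 5.76 CPM in knockout-labelled libraries and at 5.47, 5.85 and 6.53 CPM in controls. The lung groups overlapped (log2 change -0.11, 95% interval -0.53 to 0.30, edgeR adjusted p = 0.792). Knockout-labelled heart remained far below either liver group, with 27.6 ± 7.08 CPM (SD, n = 2) against 1999.6 ± 108 CPM in control liver (SD, n = 3).

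Bmp6 (ENSMUSG00000039004, chr13:38345107-38500302, plus strand, GRCm38) encodes the ligand that endothelium raises when iron is loaded. It was at 99.7, 81.2 and 131 CPM in knockout-labelled liver, against 342, 408 and 423 CPM in control liver. No library of one group reached the other, and the fall was 3.76-fold (log2 change -1.91, SE 0.210, edgeR adjusted p = 3.12e-05). In lung it was at 399, 425 and 412 CPM in knockout-labelled libraries and at 1103, 839.6 and 951 CPM in controls. Those groups were also apart, as for 29.4% of all genes in lung, and the fall was 2.34-fold (log2 change -1.23, SE 0.206, edgeR adjusted p = 0.00228). Heart libraries were at 165 and 228 CPM in the knockout-labelled group and at 228 and 362 CPM in controls. The higher knockout-labelled heart library was level with the lower control (log2 change -0.59, edgeR adjusted p = 0.12). Of the 8 genes, Bmp6 alone passed the test in the same direction in liver and lung.

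The BMP and GDF list held 18 genes, of which 14 were tested. In liver 2 rose and 3 fell, in lung none rose and 1 fell, and in heart 4 rose and none fell, with medians of 0.34, -0.01 and 0.50 on the log2 scale. Of all genes, 9.54% rose and 9.87% fell in liver, 4.35% and 4.11% in lung, and 10.2% and 9.09% in heart. The listed genes that rose in heart included Bmp2 itself, and Bmp3 and Bmp15, which averaged under 1 CPM in both heart groups. Besides Bmp2 and Bmp6, Bmp4 fell in liver, with 2.73 ± 0.912 CPM in knockout-labelled and 21.8 ± 7.93 CPM in control libraries (SD, n = 3 each, edgeR adjusted p = 4.59e-05). Bmp1, which encodes a metalloprotease and not a BMP ligand, averaged 489 ± 72.8 CPM in knockout-labelled liver and 3.73 ± 1.93 CPM in control liver (SD, n = 3 each, edgeR adjusted p = 1.29e-08). Of the 13 antagonists and modulators tested, 5 rose and none fell in liver, 2 rose and none fell in lung, and 5 rose and 1 fell in heart. Fstl1, a secreted follistatin-like protein, averaged 107 ± 30.7 CPM in knockout-labelled liver and 28.6 ± 12.9 CPM in control liver (SD, n = 3 each, edgeR adjusted p = 0.000377). Chrd, which encodes the BMP-binding protein chordin, averaged 10.1 ± 1.62 CPM in knockout-labelled lung and 1.96 ± 0.344 CPM in control lung (SD, n = 3 each, edgeR adjusted p = 0.0018).

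Of 10 BMP receptors and co-receptors tested, 1 rose and 2 fell in liver, 2 fell in lung and 4 fell in heart. Acvrl1, the endothelial type I receptor ALK1, averaged 1389.9 ± 154 CPM in knockout-labelled lung and 3055 ± 335 CPM in control lung (SD, n = 3 each, edgeR adjusted p = 0.000253). Among 14 effectors and feedback targets, 4 rose and none fell in liver, 2 rose and 1 fell in lung, and 1 rose and 4 fell in heart. Atoh8, a transcription factor gene induced by BMP signals, averaged 37.8 ± 6.86 CPM in knockout-labelled liver and 10.4 ± 1.75 CPM in control liver (SD, n = 3 each, edgeR adjusted p = 0.00148). In heart it averaged 21.7 ± 13.5 CPM in knockout-labelled and 56.0 ± 20.3 CPM in control libraries (SD, n = 2 each, edgeR adjusted p = 0.0294). The inhibitory Smad gene Smad6 also fell in heart, to 82.6 ± 22.9 CPM in knockout-labelled libraries, against 168 ± 40.2 CPM in controls (SD, n = 2 each, edgeR adjusted p = 0.0282).

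Both Wnt ligand genes fell in liver. Wnt2 (ENSMUSG00000010797, chr6:17988940-18030585, minus strand, GRCm38) encodes a ligand for beta-catenin signalling. It was at 83.1, 122 and 31.1 CPM in knockout-labelled liver, against 213, 290.0 and 286 CPM in control liver. Knockout-labelled library 3 was the lowest, and all 3 lay below the controls. The fall was 3.34-fold (log2 change -1.74, SE 0.352, edgeR adjusted p = 0.00315). Outside liver its levels were between 0.582 and 1.06 CPM in knockout-labelled lung, between 0.613 and 1.02 CPM in control lung, between 0.685 and 0.717 CPM in knockout-labelled heart and between 0.871 and 1.03 CPM in control heart, and neither change passed the test (edgeR adjusted p = 0.865 in lung and 0.659 in heart).

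Wnt9b (ENSMUSG00000018486, chr11:103727364-103749821, minus strand, GRCm38), whose upstream sequence is printed above, was at 27.9, 18.9 and 32.7 CPM in knockout-labelled liver, against 140.1, 131 and 125 CPM in control liver. The groups were far apart, and the fall was 4.98-fold (log2 change -2.32, SE 0.618, edgeR adjusted p = 0.0172), with an adjusted p of 0.0559 without knockout-labelled liver library 2. In lung it was at 0.412, 2.12 and 6.82 CPM in knockout-labelled libraries and at 1.14, 0.610 and 1.90 CPM in controls. The knockout-labelled lung libraries enclosed the controls (log2 change 1.35, 95% interval -0.14 to 2.83, edgeR adjusted p = 0.273), and it rested on library 3: without that library the log2 change was 0.018 (edgeR adjusted p = 1). Without knockout-labelled lung library 1 it was 1.89 (edgeR adjusted p = 0.0447). In heart, Wnt9b was at 4.33 and 1.54 CPM in knockout-labelled libraries and at 12.1 and 13.2 CPM in controls. These groups did not overlap, as for 59.0% of all genes in heart, but the change did not pass the test (log2 change -2.10, 95% interval -3.79 to -0.42, edgeR adjusted p = 0.077). It passed when heart was fitted alone (edgeR adjusted p = 0.0213), without a filter on low counts (edgeR adjusted p = 0.0367), or without knockout-labelled lung library 1 or 3, which share the estimate of spread (edgeR adjusted p = 0.019 and 0.0232).

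Rspo3 (ENSMUSG00000019880, chr10:29452416-29535867, minus strand, GRCm38) encodes R-spondin 3, which strengthens Wnt signals by sparing their receptors from removal. It was at 39.1, 29.7 and 39.8 CPM in knockout-labelled liver, against 118, 72.5 and 98.2 CPM in control liver. The groups did not overlap, and the fall was 2.66-fold (log2 change -1.41, SE 0.358, edgeR adjusted p = 0.013), with an adjusted p of 0.0632 without control liver library 1. Lung libraries were at 1.21, 1.07 and 0.970 CPM in the knockout-labelled group and at 1.38, 2.19 and 2.65 CPM in controls. Those groups did not overlap either, as for 29.4% of all genes in lung, but the change did not pass the test (log2 change -0.92, edgeR adjusted p = 0.21). In heart, Rspo3 had 20 and 10 counts in knockout-labelled libraries and 1 and 22 counts in controls, and the groups overlapped (log2 change 0.21, edgeR adjusted p = 0.883). Without heart control 2 that log2 change was 3.53 (edgeR adjusted p = 0.0374), against a lone control library with 1 count.

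Of 14 Wnt ligand genes tested, these 2 were the ones that fell in liver, and none rose. In lung 1 rose and 1 fell, and in heart none passed the test in either direction at the same threshold. Wnt2b, a close relative of Wnt2, rose in lung, with 30.1 ± 15.8 CPM in knockout-labelled and 10.0 ± 3.55 CPM in control libraries (SD, n = 3 each, edgeR adjusted p = 0.0194). Of 14 Wnt effectors and targets, 1 rose and 5 fell in liver, where 9.54% of all genes rose and 9.87% fell. In lung and in heart none of them rose and 1 fell, and the liver median was -0.45 on the log2 scale. Nkd1, a feedback inhibitor that Wnt signals induce, averaged 33.7 ± 12.7 CPM in knockout-labelled liver and 116 ± 2.82 CPM in control liver (SD, n = 3 each, edgeR adjusted p = 0.000104). Its relative Nkd2 averaged 15.2 ± 4.92 CPM in knockout-labelled lung and 77.5 ± 14.8 CPM in control lung (SD, n = 3 each, edgeR adjusted p = 0.0064). The receptor gene Fzd4 fell in all 3 tissues, with 134 ± 41.4 CPM in knockout-labelled and 459 ± 78.4 CPM in control liver (SD, n = 3 each, edgeR adjusted p = 0.000366), and edgeR adjusted p = 0.00907 in lung and 0.00868 in heart.

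Of 19 Wnt secretion and receptor genes tested, 4 rose and 5 fell in liver, 2 rose and 2 fell in lung, and 2 rose and 1 fell in heart. Wls, which carries Wnt proteins to the cell surface, averaged 93.1 ± 6.05 CPM in knockout-labelled heart and 43.9 ± 3.70 CPM in control heart (SD, n = 2 each, edgeR adjusted p = 0.000443). Among 13 Wnt antagonists tested, 3 rose and 2 fell in liver, and 1 rose and none fell in lung and in heart. The gene Sfrp1, for a secreted Wnt-binding protein, averaged 10.1 ± 3.63 CPM in knockout-labelled liver and 0.837 ± 0.109 CPM in control liver (SD, n = 3 each, edgeR adjusted p = 3.36e-05). Dkk3 averaged 4.25 ± 1.74 CPM in knockout-labelled liver and 70.1 ± 23.6 CPM in control liver (SD, n = 3 each, edgeR adjusted p = 1.24e-05). Of 6 R-spondin, receptor and ligase genes tested, Rspo3 was the one that fell in liver, Rnf43, a ligase that removes Wnt receptors, fell in lung (edgeR adjusted p = 0.0286), and none passed the test in heart.

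Wnt2, Wnt9b, Rspo3 and Kit also stand in a list of 7 markers of endothelium near the central vein. In liver 6 of these 7 fell, where 9.87% of all genes fell, and the median was -1.74 on the log2 scale. The 6 were the 4 genes above, counted again here, with Dkk3 and Thbd. Markers of endothelium near the portal vein did not go the other way: 4 of 6 fell in liver and none rose, with a median of -1.12. Ltbp4, which binds latent TGF-beta, averaged 208 ± 88.7 CPM in knockout-labelled liver and 3291 ± 316 CPM in control liver (SD, n = 3 each, edgeR adjusted p = 1.39e-06). Of 10 sinusoidal markers, 5 fell and none rose in liver, with a median of -0.95.

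Hgf (ENSMUSG00000028864, chr5:16553495-16620152, plus strand, GRCm38) was the gene of the 8 that rose in liver. It was at 731, 553 and 782 CPM in knockout-labelled liver, against 130.1, 93.0 and 96.8 CPM in control liver. The lowest knockout-labelled library lay well above the highest control, and the rise was 6.45-fold (log2 change 2.69, 95% interval 1.90 to 3.48, SE 0.366, edgeR adjusted p = 0.000177). In lung it was at 9.83, 3.10 and 7.91 CPM in knockout-labelled libraries and at 33.3, 31.0 and 32.1 CPM in controls. Every knockout-labelled lung library was below the controls, and in lung the groups lay apart for 29.4% of all genes. The fall was 4.61-fold (log2 change -2.20, SE 0.369, edgeR adjusted p = 0.00226). Heart levels were low, at 3.67 and 1.46 CPM in knockout-labelled libraries and 1.02 and 0.499 CPM in controls. The heart groups did not overlap, as for 59.0% of all genes in heart. The rise was 3.40-fold (log2 change 1.76, SE 0.548, edgeR adjusted p = 0.0375). That call rested on single libraries: the log2 change was 0.97 without knockout-labelled heart library 1 (edgeR adjusted p = 0.352), 2.37 without heart control 1 (edgeR adjusted p = 0.0631) and 1.33 without heart control 2 (edgeR adjusted p = 0.239), and heart fitted alone gave edgeR adjusted p = 0.094.

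Because Hgf is also a gene of hepatic stellate cells, fibroblasts and pericytes, the markers of these cells were read in the same libraries. The 12 stellate markers summed to between 238 and 451 CPM in knockout-labelled liver and between 148 and 186 CPM in control liver, and 2 of 12 rose and none fell. The markers that rose were Ecm1 and Colec11. Lrat, the stellate enzyme that stores retinol, averaged 0.337 CPM in knockout-labelled and 1.18 CPM in control liver (edgeR adjusted p = 0.151), and Des averaged 2.10 CPM in knockout-labelled and 1.84 CPM in control liver (edgeR adjusted p = 0.833). Gfap, Ngfr and Hand2 were all under 1 CPM on average in both groups. Of 13 fibroblast and pericyte markers, 2 rose and 2 fell in liver, and the sum was between 435 and 971 CPM in knockout-labelled libraries and between 204 and 234 CPM in controls. Abcc9, a potassium channel subunit of pericytes, made up most of that sum, with 597 ± 202 CPM in knockout-labelled and 133 ± 12.1 CPM in control liver (SD, n = 3 each, edgeR adjusted p = 3.34e-05). In lung, where Hgf fell, the fibroblast and pericyte sum was between 553 and 1011 CPM in knockout-labelled libraries and between 410 and 732 CPM in controls, with 1 of 13 markers higher and none lower. The part that such cells have in the Hgf values was not tested.

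**Figure D3:**
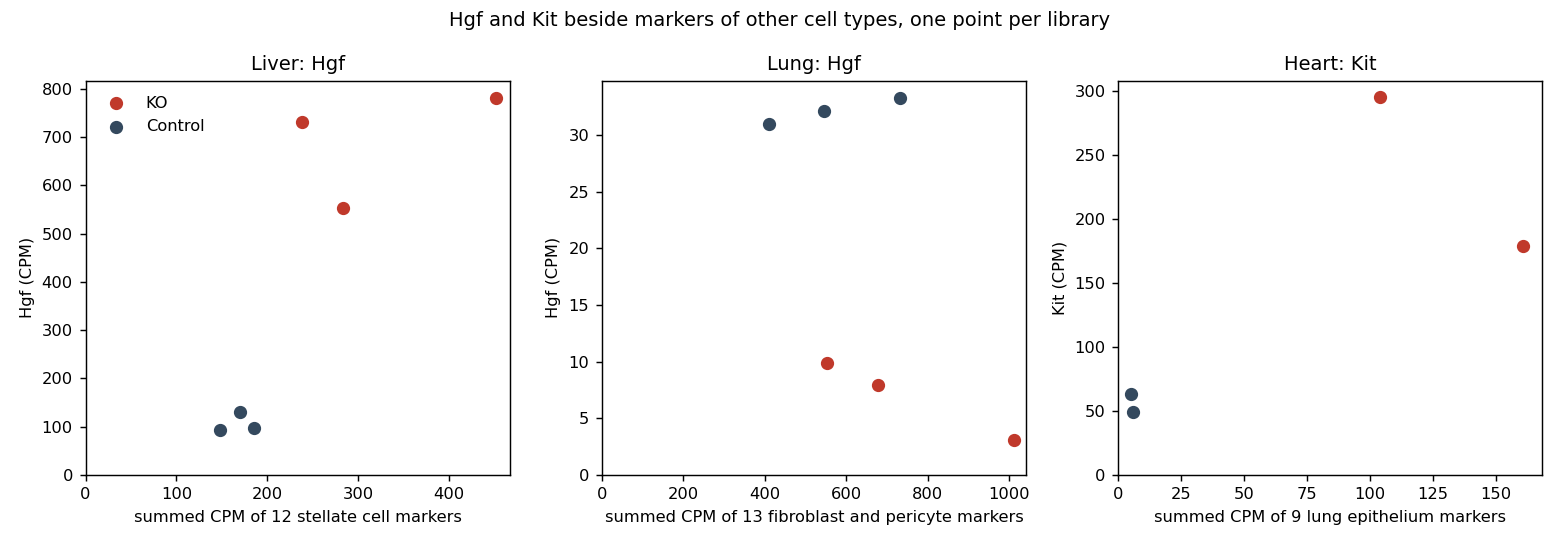
Level of a gene against the summed level of markers of another cell type, both in CPM, with 1 point per library: Hgf against stellate markers in liver, Hgf against fibroblast and pericyte markers in lung, and Kit against lung epithelium markers in heart. KO points are knockout-labelled libraries, and in liver they are higher than controls on both axes.

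The HGF activation and receptor list held 15 genes, all tested. In liver 5 rose and 2 fell, in lung 2 rose and 3 fell, and in heart 7 rose and 1 fell, with medians of 1.05, -0.26 and 1.27 on the log2 scale. These counts include Hgf itself. Among all genes, 9.54% rose and 9.87% fell in liver, 4.35% and 4.11% in lung, and 10.2% and 9.09% in heart. Plau, the gene of urokinase, a protease that can activate HGF, averaged 1846 ± 683 CPM in knockout-labelled liver and 187 ± 22.6 CPM in control liver (SD, n = 3 each, edgeR adjusted p = 1.67e-05). It also rose in lung (edgeR adjusted p = 0.000304) and in heart (edgeR adjusted p = 0.00114). Met, the HGF receptor gene, rose in heart, with 11.7 ± 1.94 CPM in knockout-labelled and 1.35 ± 0.345 CPM in control libraries (SD, n = 2 each, edgeR adjusted p = 0.000805). Met was also read in the other tissues because it is the receptor, a choice made after its values were seen: it averaged 4.92 ± 1.66 CPM in knockout-labelled and 1.35 ± 0.886 CPM in control liver (edgeR adjusted p = 0.00384), and 2.19 ± 0.368 CPM in knockout-labelled and 6.96 ± 0.454 CPM in control lung (SD, n = 3 each, edgeR adjusted p = 0.0146). Met and Hgf moved in the same direction in each tissue, though the Hgf call in heart rested on single libraries. Of 9 lung epithelium markers, 7 rose in heart, while 6 fell in lung and 2 fell in liver. The part of other cells in the Met values was not tested.

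Kit (ENSMUSG00000005672, chr5:75574916-75656722, plus strand, GRCm38) fell in liver and rose in heart. It was at 219.8, 67.1 and 124 CPM in knockout-labelled liver, against 662, 945 and 727 CPM in control liver. The groups were well apart although the knockout-labelled libraries differed among themselves, and the fall was 5.69-fold (log2 change -2.51, SE 0.352, edgeR adjusted p = 0.000225). Heart was the reverse, with 296 and 179 CPM in knockout-labelled libraries and 63.3 and 48.9 CPM in controls. Both knockout-labelled heart libraries were above both controls, and in heart the groups lay apart for 59.0% of all genes. The rise was 4.23-fold (log2 change 2.08, SE 0.425, edgeR adjusted p = 0.00421). Without heart control 2 this call was lost (log2 change 1.90). In lung, Kit was at 589, 376 and 419 CPM in knockout-labelled libraries and at 869, 818 and 869.7 CPM in controls. The lung groups did not overlap, as for 29.4% of all genes in lung, but the change did not pass the test (log2 change -0.88, 95% interval -1.60 to -0.16, edgeR adjusted p = 0.129). With lung fitted alone, edgeR adjusted p was 0.0277, and without knockout-labelled liver library 2, which shares the estimate of spread, it was 0.0465.

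Other cells that carry Kit or come from lung were read beside the heart values. Of 9 lung epithelium markers, 7 rose in heart and none fell, and their sum was between 104 and 161 CPM in knockout-labelled heart and between 5.08 and 6.01 CPM in control heart. Lung endothelium, where Kit is high, was read through Foxf1 and Tmem100, genes chosen after values were seen. Foxf1 was at 3.52 and 5.32 CPM in knockout-labelled heart and 3.28 and 5.02 CPM in control heart, against a mean of 1607 CPM in control lung, and its change in heart did not pass the test (log2 change 0.09, edgeR adjusted p = 0.901). Tmem100 was at 24.1 and 31.2 CPM in knockout-labelled heart and 9.23 and 14.1 CPM in control heart, against a mean of 1552 CPM in control lung (log2 change in heart 1.25, edgeR adjusted p = 0.0755). Of 8 mast cell markers, 2 were tested, and their sum was between 118 and 120 CPM in knockout-labelled heart and between 24.9 and 29.2 CPM in control heart, nearly all of it Hdc, which averaged 119 ± 1.71 CPM in knockout-labelled and 27.0 ± 3.02 CPM in control heart (SD, n = 2 each, edgeR adjusted p = 0.0036). The other 7 mast cell markers were at or near 0 in heart. Cpa3, Fcer1a and Ms4a2 had no count in either heart group, Tpsab1 and Cma1 averaged 0.0256 and 0.0367 CPM in knockout-labelled heart and had no count in control heart, and Tpsb2 averaged 0.0128 CPM in knockout-labelled and 0.0145 CPM in control heart. Mcpt4 averaged 0.115 CPM in knockout-labelled and 0.0139 CPM in control heart. Of 13 leukocyte markers tested, 6 rose and none fell in heart, with sums between 170 and 295 CPM in knockout-labelled and between 17.1 and 49.7 CPM in control libraries. Megakaryocyte, platelet and blood progenitor markers summed to between 57.6 and 61.0 CPM in knockout-labelled heart. In control heart they summed to between 13.6 and 16.2 CPM, and 2 of the 8 rose with the knockout label and none fell. The part of any of these cell types in the heart values was not tested.

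Kitl (ENSMUSG00000019966, chr10:100015630-100100416, plus strand, GRCm38) was at 70.5, 83.9 and 92.5 CPM in knockout-labelled liver, against 126, 188 and 199.6 CPM in control liver. The groups did not overlap, and the fall was 2.08-fold (log2 change -1.06, SE 0.208, edgeR adjusted p = 0.00266). Heart libraries were at 339.9 and 439.6 CPM in the knockout-labelled group and at 882 and 875 CPM in controls. Both knockout-labelled heart libraries were well below both controls, a 2.25-fold fall (log2 change -1.17, SE 0.255, edgeR adjusted p = 0.00618). In heart the groups lay apart for 59.0% of all genes. Without knockout-labelled heart library 1 the Kitl call was lost (log2 change -0.98). In lung it was at 571, 449 and 482 CPM in knockout-labelled libraries and at 391, 645 and 557 CPM in controls. The lung groups overlapped (log2 change -0.08, 95% interval -0.53 to 0.36, edgeR adjusted p = 0.86). Receptor and ligand therefore fell together in liver and moved in opposite directions in heart.

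Of 11 genes listed for Kit, its ligand and its signalling, 1 rose and 4 fell in liver, 1 rose and 1 fell in lung, and 3 rose and 1 fell in heart, with medians of -0.74, -0.07 and 0.13 on the log2 scale. Grb10, an adaptor that binds receptor tyrosine kinases, rose in all 3 tissues, with 281 ± 22.8 CPM in knockout-labelled and 111 ± 11.3 CPM in control liver (SD, n = 3 each, edgeR adjusted p = 9.66e-05). The adjusted p for Grb10 from edgeR was 0.0129 in lung and 0.00964 in heart. Sh2b3, an adaptor that dampens Kit signals, fell in liver to 169 ± 29.0 CPM in knockout-labelled libraries, against 281 ± 14.9 CPM in controls (SD, n = 3 each, edgeR adjusted p = 0.001).

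The change itself was compared between tissues with the difference of the knockout changes, and the 3 differences share the libraries of each tissue. Lung minus liver passed for 2 of the 8 genes, where 6.20% of all genes passed, heart minus liver for 3 of 8, where 8.32% passed, and heart minus lung for 3 of 8, where 6.40% passed. Of the 8 genes Hgf differed most between lung and liver, by -4.89 on the log2 scale (SE 0.519, edgeR adjusted p = 0.000117), and it differed by 3.97 between heart and lung (SE 0.657, edgeR adjusted p = 0.00376). That last value was 3.17 without knockout-labelled heart library 1 and 4.57 without heart control 1. For Wnt9b lung minus liver was 3.66 (SE 0.922, edgeR adjusted p = 0.0309), and without knockout-labelled lung library 3 it was 2.33 (edgeR adjusted p = 0.0981). The Wnt9b call was also lost without knockout-labelled liver library 1 or 2, any control liver library, or control lung library 1 or 2, with log2 differences of 3.34 to 3.70 (edgeR adjusted p from 0.0516 to 0.0813). Kit differed by 4.59 between heart and liver (SE 0.556, edgeR adjusted p = 0.00035) and by 2.96 between heart and lung (SE 0.539, edgeR adjusted p = 0.00668). Bmp2 differed by 2.60 between heart and liver (SE 0.299, edgeR adjusted p = 0.000226) and by 1.82 between heart and lung (SE 0.303, edgeR adjusted p = 0.00379). For Bmp6 heart minus liver was 1.33 (SE 0.323, edgeR adjusted p = 0.0216), and this call was lost without control liver library 3 (edgeR adjusted p = 0.0531), knockout-labelled heart library 2 (0.102) or heart control 1 (0.123), and when liver and heart were fitted without lung (0.0598).

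Wnt2, Rspo3 and Kitl passed none of the 3 differences in the fit of all libraries. Wnt2 differed by 1.94 between lung and liver (edgeR adjusted p = 0.0744), Rspo3 by 1.62 between heart and liver (edgeR adjusted p = 0.234) and Kitl by -1.09 between heart and lung (edgeR adjusted p = 0.0643). These values do not show that the changes were alike, and several passed under other settings. For lung minus liver DESeq2 called Bmp2, Wnt2, Kit and Kitl (DESeq2 adjusted p = 0.0374, 0.00795, 0.00918 and 0.0188). In that difference Wnt2 also passed without knockout-labelled liver library 2 or 3 (edgeR adjusted p = 0.0174 and 0.0216), Kit without knockout-labelled liver library 1 (0.00664), Kitl without control liver library 1 (0.0319) and Bmp2 without knockout-labelled lung library 2 (0.0401). For heart minus lung DESeq2 called Wnt9b and Kitl (DESeq2 adjusted p = 0.035 and 0.0224), and edgeR called Wnt9b without knockout-labelled lung library 1 (adjusted p = 0.0124) and Kitl without control liver library 1 (adjusted p = 0.0487). Rspo3 passed for heart minus liver and heart minus lung without heart control 2 (edgeR adjusted p = 0.0116 and 0.0318), against the lone control library with 1 count.

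Compared per kilobase of exon, so that genes of different length can be set side by side, Bmp2 was the highest of the 8 in liver, with 303 ± 15.2 CPM per kb in knockout-labelled and 562 ± 30.3 CPM per kb in control libraries (SD, n = 3 each). Hgf was second in knockout-labelled liver, with 95.8 ± 16.8 CPM per kb, and last in control liver, with 14.8 ± 2.84 CPM per kb (SD, n = 3 each). Wnt2 stood at 34.9 CPM per kb in knockout-labelled and 117 CPM per kb in control liver, and Wnt9b at 5.87 CPM per kb in knockout-labelled and 29.2 CPM per kb in control liver. In control lung the highest was Bmp6, with 247 CPM per kb, and in control heart Kitl, with 149 CPM per kb. Over the 6 groups the order of Bmp2 ran from control liver to knockout-labelled liver, knockout-labelled heart and control heart, and the neighbours that overlapped were the 2 lung groups at the end. For Kitl the order was control heart, control lung, knockout-labelled lung, knockout-labelled heart, control liver and knockout-labelled liver, with the 2 lung groups overlapping.

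**Figure D4:**
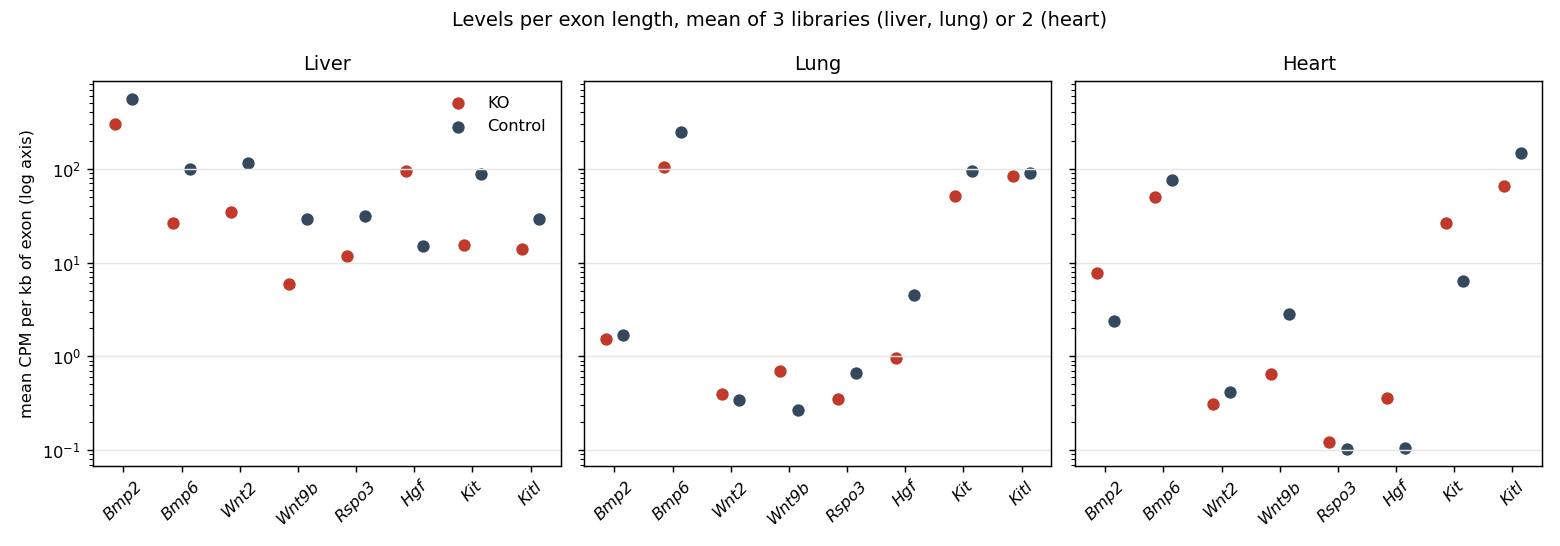
Mean level of each gene per kilobase of exon, in CPM per kb on a log axis, in the 6 groups. Knockout-labelled groups (KO) stand left of their controls, and Hgf is second to Bmp2 in KO liver and lowest of the 8 in control liver.

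The genes most like each of the 8 over the 16 libraries were found among 15468 genes with the same centred log2 CPM, as a description only. For Bmp2 these were Fam167b, Maf and Smim9, with differences of 0.564 to 0.666, where the median over all genes compared was 3.71. Maf encodes a transcription factor of sinusoidal endothelium. Bmp6 was closest to Fas, Tspyl4 and Rph3al (0.351 to 0.412, median 1.21), and Kitl to St8sia4, Podxl and Syne2 (0.339 to 0.371, median 1.32). Wnt2 was closest to Calhm6, Cyp2c50 and Akr1c6 (0.460 to 0.594, median 3.62), and Rspo3 to Plxnc1, Masp1 and Azgp1 (0.583 to 0.854, median 3.24). Kit came nearest to Ugt1a6b, Cutal and Kcnq1 (0.695 to 0.729, median 1.53), and Wnt9b to Rxrg, Enpp6 and Rab3il1 (0.964 to 1.04, median 2.66). Ugt1a6b and Cutal averaged under 1 CPM in all 6 groups. The measure takes in tissue differences, so a near gene need not share the knockout change. Smim9 averaged 11.3 CPM in knockout-labelled and 8.98 CPM in control liver, while Fam167b and Maf had lower means in knockout-labelled liver, as Bmp2 had. Counts of Cyp2c50, Akr1c6 and Ugt1a6b, which have near copies in the genome, are uncertain. Cyp2c50 and Akr1c6 averaged 0 CPM in every lung and heart group. The 12 hepatocyte markers summed to between 657 and 1044 CPM in knockout-labelled liver and between 839 and 2990 CPM in control liver. Of these markers 3 fell and none rose in liver, with a median of -1.30 on the log2 scale. The part of hepatocytes in the liver values was not tested. Hgf had no gene as near on this measure, with Tlr12, Plet1os and Shisa9 at 1.36 to 1.42 and a median of 3.29. The measure is not scaled to the spread of each gene, so distances are not directly comparable between the 8 genes.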

How the data were processed

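RNA-seq of sorted endothelial cells gave 16 libraries. The values are raw counts per gene as deposited by the authors in 1 table, all of whose library columns were used. FastQC 0.11.5, STAR 2.7.6a and the build GRCm38 are named in the submitters' processing notes. The sources used here do not say how reads were counted per gene, with which annotation and whether by strand, so genes that overlap on opposite strands are uncertain.

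Genes were kept by filterByExpr (minimum count 10, minimum total 15), which left 19646 of 52636. All libraries entered 1 fit of edgeR 4.0.16 (R 4.3.3), a quasi-likelihood test with TMM scaling (factors 0.916 to 1.07) and 1 mean per group. P-values were adjusted by Benjamini-Hochberg over all genes tested, at 0.05. The test was tried on simulated data first. Levels per kilobase used the GENCODE M21 union of exons. The alternatives were DESeq2 1.42.0, other scaling, no filter, separate fits, replicate numbers as a block and leaving out each library. Of each list, up to 4 genes per tissue with the smallest adjusted p and a group mean of at least 1 CPM could be named. The 8 genes and all lists were chosen with earlier results of these data known. Upstream sequences and starts are from RefSeq, GRCm38.p6.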

Additional observations from a re-analysis of the deposited data

Results flagged for a closer look

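In 8 cases the knockout change of a gene differed between tissues by the test of that difference (edgeR, Benjamini-Hochberg over all genes). For Hgf, lung minus liver was -4.89 on the log2 scale, with a fall in lung and a rise in liver that both passed the test. Heart minus lung was 3.97 for Hgf. Wnt9b gave 3.66 for lung minus liver, from a fall in liver and a lung change that did not pass the test. Kit gave 4.59 for heart minus liver and 2.96 for heart minus lung. Its libraries were higher in knockout-labelled heart and lower in knockout-labelled liver and lung without overlap. Of all genes tested, 59.0% in heart, 37.0% in liver and 29.4% in lung also lay apart. The Kit change in lung did not pass the test (edgeR adjusted p = 0.129). Bmp2 gave 2.60 for heart minus liver, where the calls were opposite, and 1.82 for heart minus lung. Bmp6 gave 1.33 for heart minus liver, from a fall in liver and a heart change that did not pass the test. The tissues share no libraries within a difference, but each tissue enters 2 of the 3 differences.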

How the results depend on the processing

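The 72 changes and differences of the 8 genes were recomputed under 22 alternatives each. No value that passed the threshold, in the fit of all libraries or under the alternative, changed direction. Of values that passed in neither, 7 changed sign, all when 1 library was left out, in 5 results: Bmp2 (log2 change 0.065) and Kitl (0.081) in lung, Rspo3 in heart (-0.31 and -0.69), and Wnt9b (-0.71) and Kitl (0.064 and 0.067) for heart minus liver. In all, 1524 of 1584 values kept their side of the threshold, while 24 lost the call and 36 gained it, spread over 21 results. Members called for lung minus liver numbered 2, against 5 without a filter, 4 with either replicate block and 6 with DESeq2, and those for heart minus lung numbered 3, against 5 without a filter and with DESeq2. Of all genes, DESeq2 called 2054 for lung minus liver, 2644 for heart minus liver and 2127 for heart minus lung, where edgeR called 1219, 1635 and 1257. Leaving out 1 library at a time gave 917 to 2087 genes called in lung, 1793 to 4243 in heart, 807 to 1269 for lung minus liver, 711 to 1780 for heart minus liver, 467 to 1671 for heart minus lung and 3467 to 6242 for control heart against control lung. Members called then ran from 2 to 5 in heart and from 1 to 3 for lung minus liver. Where a group was left with 1 library, that library was assumed to vary like the others.

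Whether the replicate numbers pair the samples could not be told from these values. Deviations of same-numbered libraries correlated at -0.05, 0.24 and 0.10 in liver, at -0.07, -0.08 and 0.03 in lung and at 0.05 in heart. Not every library was closest to its own number, and in heart the 2 libraries of a group deviate by equal and opposite amounts. With the title number as a replicate block, 3888 genes were called in liver, 1814 in lung and 3976 in heart, and Wnt9b passed in heart (edgeR adjusted p = 0.0445). Both blocks also called Kit and Kitl for lung minus liver, and Kitl for heart minus lung. Depth limits Rspo3 and Hgf in heart, where libraries held as few as 1 and 18 counts. Counts were also low for Wnt2, with as few as 22 in lung and 28 in heart. In lung, Wnt9b and Rspo3 had as few as 17 and 33.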

Other observations

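Of 32 other genes for secreted or signalling factors of endothelium, 8 rose and 3 fell in liver, 2 rose and 3 fell in lung, and 11 rose and 3 fell in heart, with medians of 0.59, 0.02 and 0.78 on the log2 scale. Among all genes, 9.54% rose and 9.87% fell in liver, 4.35% and 4.11% in lung, and 10.2% and 9.09% in heart. Pdgfd, a platelet-derived growth factor gene, fell in all 3 tissues, with 31.2 ± 2.62 CPM in knockout-labelled and 77.7 ± 3.18 CPM in control liver (SD, n = 3 each, edgeR adjusted p = 4.25e-05), and with edgeR adjusted p = 0.00163 in lung and 0.000865 in heart. Ccn2, which encodes a matrix-associated growth factor, averaged 694 ± 164 CPM in knockout-labelled and 93.2 ± 43.1 CPM in control liver (SD, n = 3 each, edgeR adjusted p = 0.000274), and it rose in lung too (edgeR adjusted p = 0.00651). Angpt2, an antagonist ligand of the Tie2 receptor, averaged 537 ± 344 CPM in knockout-labelled and 42.7 ± 2.45 CPM in control lung (SD, n = 3 each, edgeR adjusted p = 6.4e-05). Fgf1 averaged 47.8 ± 3.94 CPM in knockout-labelled and 7.70 ± 3.56 CPM in control heart (SD, n = 2 each, edgeR adjusted p = 0.00127).

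Of 8 megakaryocyte, platelet and blood progenitor markers, 3 rose in liver, 3 in lung and 2 in heart, and none fell. Itga2b, the platelet integrin gene, averaged 154 ± 35.6 CPM in knockout-labelled and 27.8 ± 4.80 CPM in control liver (SD, n = 3 each, edgeR adjusted p = 4.65e-06).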
